A study of Homo sapiens with 12 samples.

Results

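The experiment crossed disulfiram given with copper (DSF) and niclosamide (NSM) in SHI-1, an acute myeloid leukemia cell line that carries the MLL-AF6 fusion, and asked which genes the drugs together moved further, less far or in another direction than the drugs given singly would predict. All 12 libraries of the series were used, 3 from independent experiments in each of 4 groups: DMSO, 0.3 µM DSF with 1 µM copper, 5 µM NSM, and both treatments together (DSF+NSM), each for 16 h. All groups share the SHI-1 background with its MLL-AF6 fusion, and whether the DMSO and NSM cells also received copper is not stated. The labels name RPMI 1640 medium, whereas the study's supplementary methods name IMDM. SHI-1 is a single line, so the values describe that line alone, and p-values measure the spread between 3 experiments per group.

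For every gene the additive sum was taken as the DSF change plus the NSM change, each against DMSO, and the interaction as the DSF+NSM change minus that sum. All of these are differences of log2(normalized count + 1), so an additive gene is one whose folds under the single drugs multiply in the combination. A gene was called when the adjusted p from limma was under 0.05, over the 13502 genes that reached a normalized count of 10 in at least 3 libraries. Called genes were then placed by their own signs. "Combination only" genes were called against DMSO for DSF+NSM and for neither single drug. The other placed genes were called for at least 1 single drug: "more than additive" where the interaction had the sign of the sum, "less than additive" where it opposed the sum and DSF+NSM stayed on the side of the sum, and "reversed" where DSF+NSM lay on the other side of DMSO from the sum. The single-drug changes, the sum, the DSF+NSM change and the interaction share the DMSO libraries, so none of them is independent of the rest.

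As background, copper carried into cells by disulfiram is known to load the metal sensor MTF1 and to damage proteins, and unfolded protein frees HSF1, which drives chaperone genes. Niclosamide is known to uncouple mitochondrial respiration, and mitochondrial stress feeds the integrated stress response, in which phosphorylated eIF2α slows translation while ATF4 switches on genes for amino acid supply and, with DDIT3, for cell death. Cells short of sterol activate SREBP2, the regulator of cholesterol synthesis. MLL fusions are known to keep HOXA genes, MEIS1 and MYC active in leukemia.

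Sums of the deposited normalized counts ran from 14.0 to 14.4 M for DMSO, while DSF libraries held 14.9 to 15.3 M, NSM libraries 16.5 to 17.5 M and DSF+NSM libraries 22.7 to 25.6 M. Dividing each sum by the library's smallest common value gave an estimated depth of 10.2 to 19.0 M reads. The 10 most abundant genes held 22.5% to 24.3% of a DSF+NSM library and 7.48% to 8.97% of a DMSO library, and the 6 rRNA genes listed held 9.63% to 11.7% and 1.88% to 3.58%. NSM replicate 3 stood apart, with Spearman correlations of 0.952 and 0.959 to the other NSM libraries, against at least 0.981 for all other pairs within a group. All 6 myeloid markers were listed, summing to 8457 to 12934, and no erythroid marker was listed. The 4 B cell markers summed to 52.2 to 60.1 in DMSO but to 22.6 to 224 in NSM and 26.6 to 659 in DSF+NSM libraries, highest in NSM replicate 2 and DSF+NSM replicate 1. The T cell markers (3 of 4 listed) summed to 97.2 to 103 in DMSO and 141 to 192 in DSF+NSM libraries, and the fibroblast markers (2 of 4 listed) to 26.9 to 31.5 and 76.7 to 147. The part of these signals in the results was not tested. In bulk RNA, fewer cells of a type and less RNA per cell cannot be told apart. Counts without each library are given below where they matter.

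Of the 13502 genes tested, 3527 (26.1%) were called for the interaction, 1632 above the additive sum (12.1%) and 1895 below it (14.0%). Against DMSO, DSF changed 17.8% of all genes, NSM 49.1% and DSF+NSM 52.8%, and the additive sum was called for 37.0%. DSF+NSM differed from DSF in 43.1%. The median interaction of all genes was 0.01, and the central range from the 5th to the 95th percentile ran from -1.45 to 1.86. Scaling every library to an equal sum instead shifted the median of all genes to -0.40 and the calls to 913 above and 3866 below, so that 19.1% of calls lay above the sum against 46.3%. In no alternative run did a gene called in both fits change the sign of its interaction. Without NSM replicate 3, 6175 genes were called, among them 3513 of the 3527.

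Less than additive genes formed the largest class, with 1607 genes (11.9% of those tested), of which 992 lay below a positive sum and 615 above a negative one. Reversal followed with 790 genes (5.85%), and in 300 of them (2.22%) DSF+NSM was also called against DMSO in the direction opposite to a called single drug. A change in the combination only was called for 671 genes (4.97%), 336 above and 335 below the sum, and a more than additive change for 277 (2.05%), 187 above and 90 below. The remaining 182 (1.35%) could not be placed. On a linear scale, where the normalized counts gained under each drug are added instead of the logs, the interaction kept its sign in 3508 of the 3527 genes, and 16 of the 19 exceptions were less than additive genes below the sum.

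**Figure D1:**
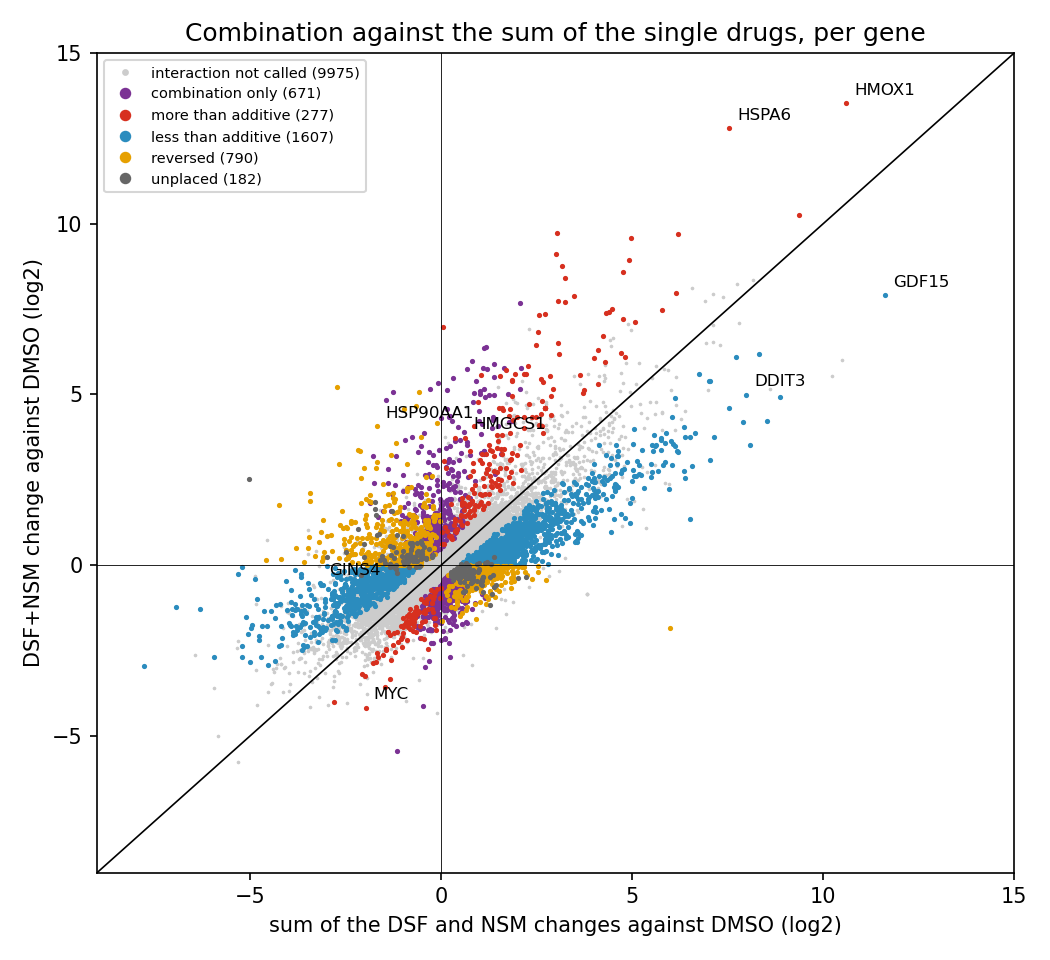
Each point is 1 gene, with the sum of the DSF and NSM log2 changes against DMSO on the x axis and the log2 change of DSF+NSM on the y axis. Genes on the diagonal are additive. The 277 more than additive genes lie beyond it, the 1607 less than additive genes fall between it and the x axis, and the 790 reversed genes sit across that axis.

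**Figure D2:**
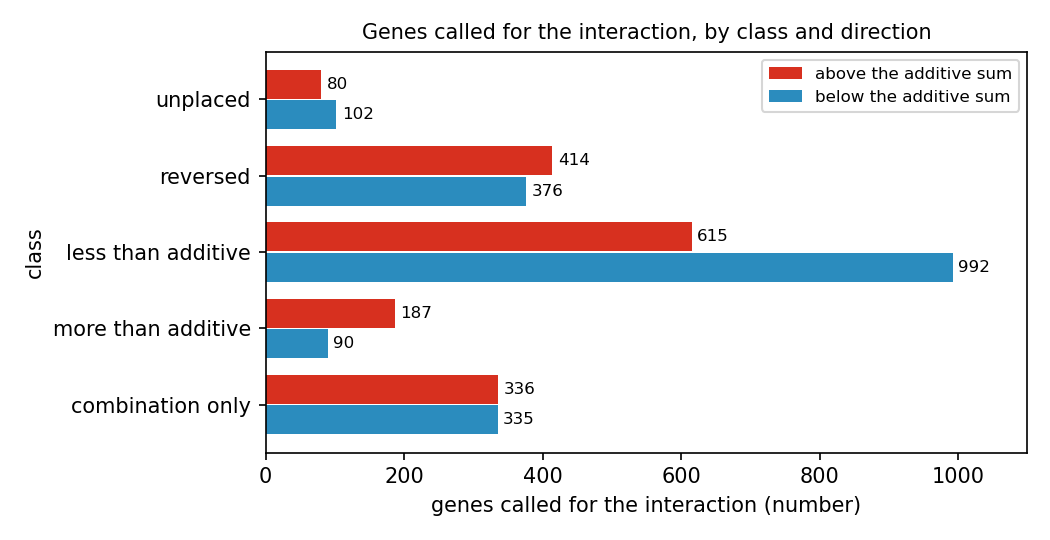
The x axis gives the number of genes called for the interaction in each class, split by whether DSF+NSM lay above or below the additive sum. The longest bars are the 992 and 615 less than additive genes, while more than additive genes lay above the sum in 187 cases and below it in 90.

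Functions were followed through 32 lists of genes holding 774 tested genes, of which 315 were called. The lists separated widely around the all-gene median of 0.01. Heat shock genes had a median interaction of 3.48, replication-dependent histones 1.78, metal response genes 1.77, cholesterol synthesis 1.42 and proteasome subunits 1.24. At the other end stood the integrated stress response at -1.68, MYC and its partners at -0.89, amino acid synthesis at -0.83, amino acid transporters at -0.81, MLL-fusion targets at -0.79 and mitosis at -0.73. Under equal sums each of these medians kept its sign. The histone and metal response medians rest on members that passed the filter only through the DSF+NSM libraries (11 of 44 and 2 of 8), and with genes at 10 or more in every library they were 0.60 and 0.89.

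**Figure D3:**
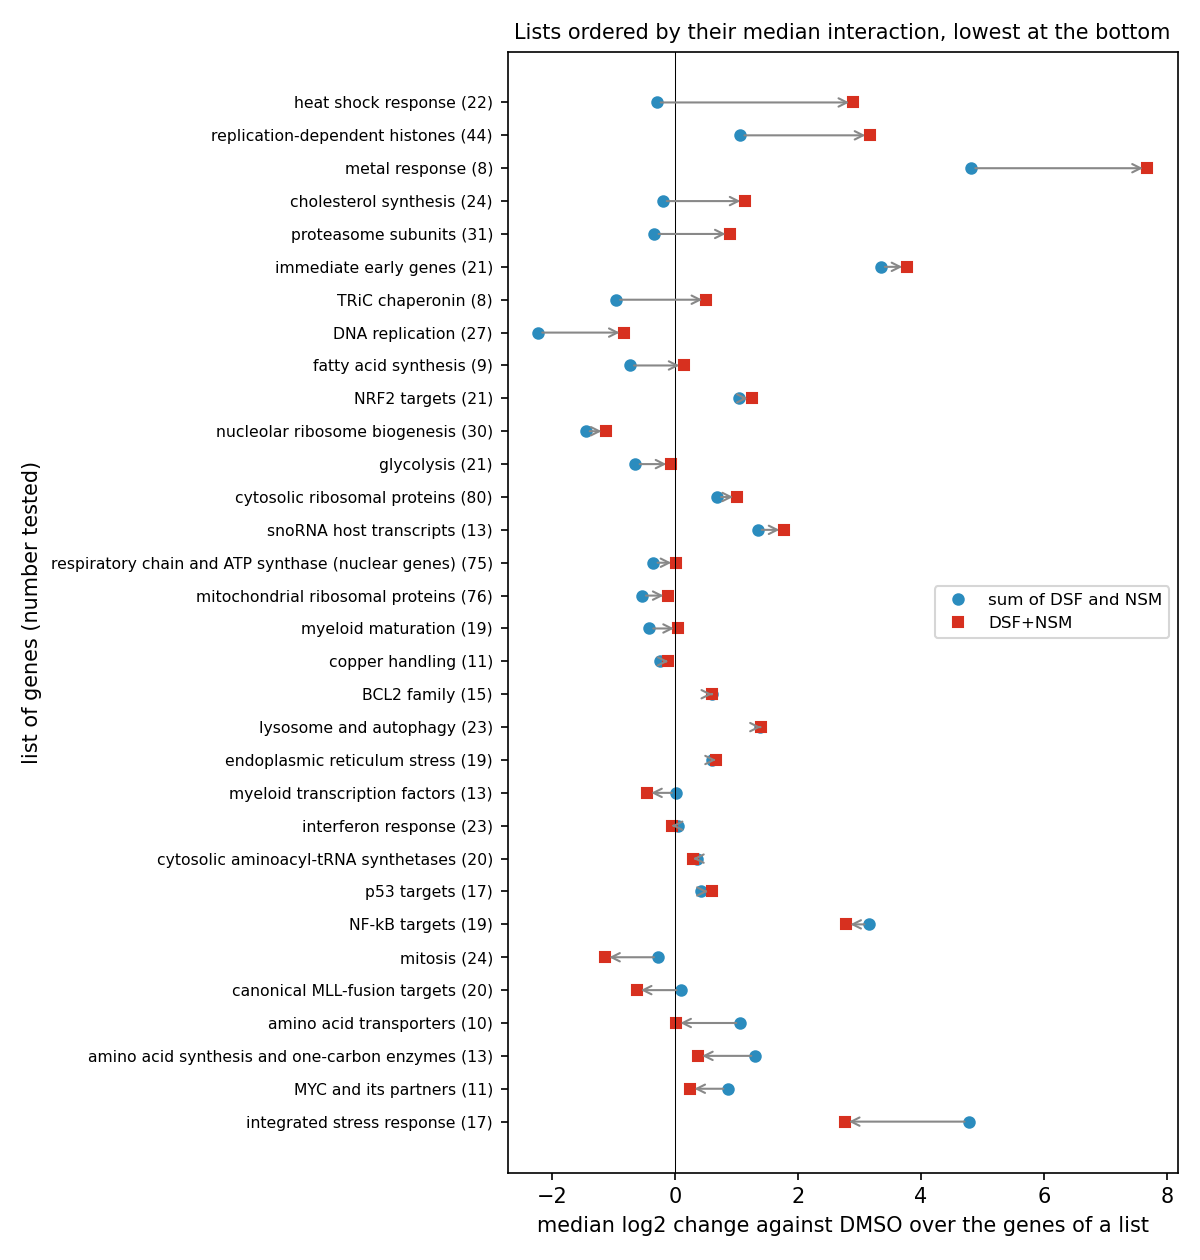
For each list the circle marks the median additive sum and the square the median change of DSF+NSM, both as log2 changes against DMSO, with an arrow from the first to the second. Heat shock genes moved from -0.30 to 2.90, and integrated stress response genes from 4.78 back to 2.76.

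The heat shock response had the highest median interaction of the 32 lists. Of 22 chaperones and regulators, 20 were called above the sum (12.1% of all genes were), none below it, and in 19 the DSF+NSM libraries all lay above the other 9 libraries (11.8% of all genes). The median change was 0.10 under DSF, -0.43 under NSM and 2.90 under both. In single treatments the list was split. DSF raised 6 genes and lowered 3, and NSM raised none and lowered 10, where DSF changed 17.8% and NSM 49.1% of all genes. By class, 8 genes were reversed (5.85% of all genes), 6 more than additive (2.05%) and 6 called in the combination only (4.97%). The calls above the sum numbered 19 to 21 with each library left out in turn and 19 under equal sums. DSF replicate 3 and DSF+NSM replicate 3 were the lowest of their groups in most of these genes, and without DSF+NSM replicate 3 the median interaction was 3.79.

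The inducible HSP70 genes HSPA1A and HSPA1B, which refold damaged protein, had the 2 largest interactions of the list. The bases before their start sites are shown because they can be searched for the heat shock element GAANNTTC, which reads alike on both strands. Sequences here and below are RefSeq promoters of GRCh38.p14, 250 bases ending just before the start site, in lower case with motif matches in capitals.

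HSPA1A, chr6:31815293-31815542, plus strand: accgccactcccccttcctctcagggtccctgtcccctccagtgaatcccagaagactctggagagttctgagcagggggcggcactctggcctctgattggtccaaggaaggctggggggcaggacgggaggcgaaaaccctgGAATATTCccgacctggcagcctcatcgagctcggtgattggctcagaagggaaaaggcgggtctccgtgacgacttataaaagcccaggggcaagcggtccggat

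HSPA1B, chr6:31827488-31827737, plus strand: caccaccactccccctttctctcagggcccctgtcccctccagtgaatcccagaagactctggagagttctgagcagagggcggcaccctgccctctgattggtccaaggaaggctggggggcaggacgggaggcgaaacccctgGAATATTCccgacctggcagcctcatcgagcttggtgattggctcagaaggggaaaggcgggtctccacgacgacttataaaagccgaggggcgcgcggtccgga

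Both windows held 1 match, at -106 and -105 from the start site, and 93.6% of their aligned bases were identical. Of the 22 heat shock genes, 19 had a RefSeq promoter here and 12 of these a match, and over all 35116 windows the share was 5.78% (7.05% of genes). Normalized counts of HSPA1A were 121, 104 and 77.4 in DMSO, 4939, 5500.0 and 1801 in DSF, 37.3, 20.3 and 12.8 in NSM, and 108681, 109561 and 52688 in DSF+NSM libraries. DSF raised it, NSM lowered it below DMSO, and the DSF+NSM libraries stood above all others. The additive sum of 3.04 predicted a level of 819, whereas DSF+NSM reached 9.74 over DMSO, an interaction of 6.71 (95% confidence interval 5.32 to 8.10, adjusted p = 4.58e-05). HSPA1B gave 1219, 1201 and 1040.1 in DMSO, 35831, 42318 and 16974 in DSF, 428, 362 and 303 in NSM, and 753236, 794172 and 442073 in DSF+NSM libraries, with an interaction of 6.11 (adjusted p = 7.41e-06). The 2 genes are near-identical copies, so reads may have been split between them and their separate values are uncertain.

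HSP90AA1, the inducible HSP90 that matures signalling proteins, was reversed. Its normalized counts were 47731, 49362 and 45766 in DMSO, 50674, 51963 and 39553 in DSF, 13076, 13086 and 20462 in NSM, and 908983, 906127 and 629743 in DSF+NSM libraries. DSF left it near DMSO (-0.02), NSM lowered it in all 3 libraries (-1.65), and in DSF+NSM the lowest library was above the highest DMSO library by more than any spread within a group. The interaction was 5.74 (SE 0.27, adjusted p = 3.98e-07). HSPE1, the mitochondrial cochaperonin, was lowered by DSF (-0.97) and by NSM (-2.47) but was 1.87 over DMSO with both, in libraries of 22284, 18998 and 13293 against 5187, 4822 and 4584 in DMSO. Its partner HSPD1 moved likewise, from a sum of -1.08 to 1.02. HSPH1, a nucleotide exchange factor for HSP70, went from a sum of -0.98 to 4.58, and DNAJA1, an HSP40 cochaperone, from -1.71 to 2.85. The HSP90 cochaperones AHSA1 and FKBP4 followed the same course, with interactions of 3.46 and 3.85.

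Other heat shock genes were already raised by DSF and went beyond the sum. DNAJB1, which directs HSP70 to its clients, had 2856, 2756 and 2589 in DMSO, 24135, 29517 and 13447 in DSF, 3726, 2903 and 2284 in NSM, and 631025, 659184 and 468761 in DSF+NSM libraries. NSM alone did not change it at the threshold (adjusted p = 0.787), and the combination lay at 7.73 against a sum of 3.05. BAG3, which routes damaged protein to autophagy, had an interaction of 4.29 (adjusted p = 2.78e-05) and HSPA6, a strictly stress-induced HSP70, 5.25 (adjusted p = 5.72e-05). Reads of HSPA6 may be shared with its near-copy HSPA7. CRYAB, a small chaperone, was listed at 0 in all DMSO and NSM libraries, at 105, 112 and 32.7 in DSF and at 1218, 984 and 486 in DSF+NSM. The constitutive members HSPA8 and HSP90AB1 were called in the combination only, at 2.34 and 2.41 over DMSO. HSF1 itself, the regulator of the response, was not called (-0.28, adjusted p = 0.597), and neither was DNAJB4.

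Outside the list, HSPA2, a further HSP70 gene, was among the largest combination-only rises, with 5.30, 3.78 and 6.86 in DMSO, 13.9, 9.95 and 15.3 in DSF, 2.95, 1.94 and 0 in NSM, and 383, 341 and 82.1 in DSF+NSM libraries. DSF+NSM replicate 3 was the lowest of its group but still above all other groups. HSPA2 passed the filter only through the DSF+NSM libraries, so it had to differ.

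**Figure D4:**
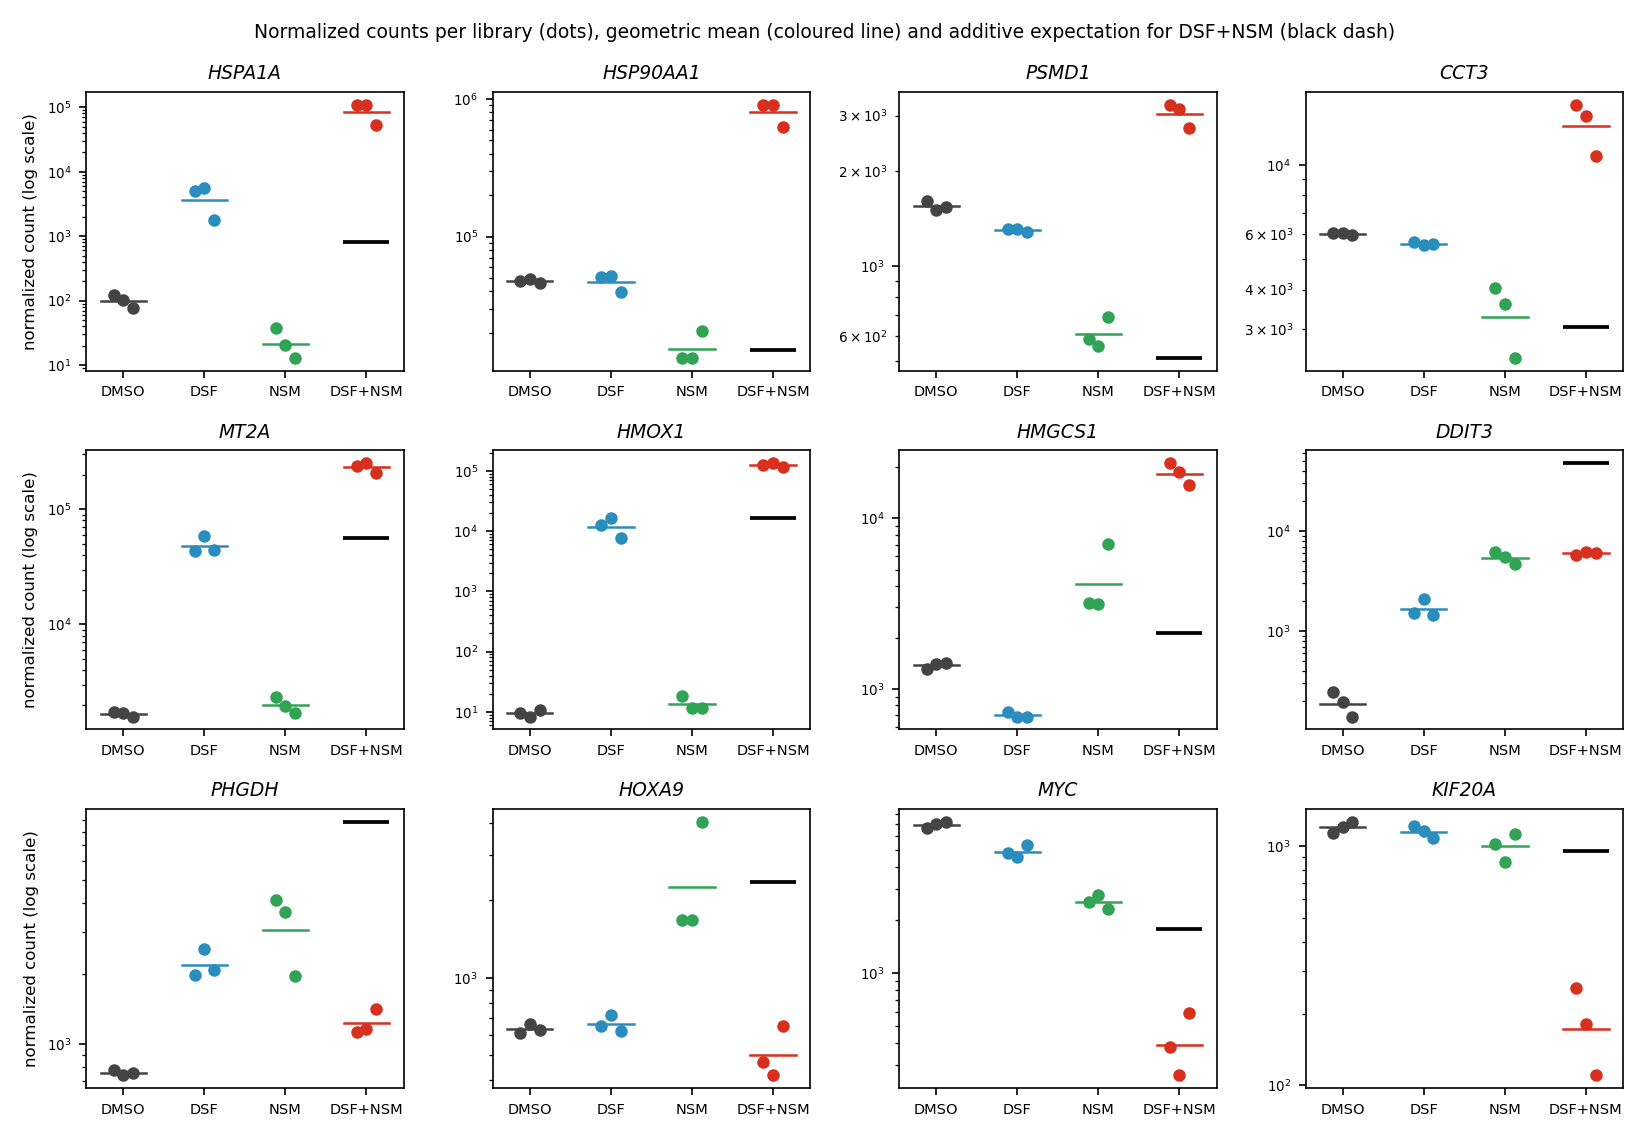
Normalized counts on a log scale for 12 genes, with 1 dot per library in the DMSO, DSF, NSM and DSF+NSM groups, coloured lines at the geometric means and a black dash at the level that additivity predicts for DSF+NSM. HSP90AA1 and PSMD1 cross from below to above DMSO, DDIT3 in DSF+NSM stays at the level of NSM alone, and KIF20A is low in DSF+NSM only.

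The proteasome, which degrades ubiquitin-tagged protein, was called above the sum in most of its subunits. Of its 31 subunits, 29 were called above the sum (12.1% of all genes) and none below, and PSMD8 and PSMD4 were not called. NSM alone lowered 16 and raised 3, and DSF lowered 7 and raised 2, where NSM changed 49.1% and DSF 17.8% of all genes. DSF+NSM raised 26 and lowered none (28.3% of all genes were called higher). In 17 subunits the change was reversed (5.85% of all genes) and in 8 it was called in the combination only (4.97%). In 27 the DSF+NSM libraries stood above all the others (11.8%). The summed level of the subunits was 86172 to 89732 in DMSO, 84110.3 to 89432 in DSF, 68254 to 75672 in NSM and 150250.0 to 171419 in DSF+NSM libraries. Under equal sums 22 were called above and none below, and with single libraries left out 26 to 30.

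PSMD1, a scaffold subunit of the regulatory base, showed the largest interaction of the complex. Its normalized counts were 1608, 1508 and 1539 in DMSO, 1309, 1308 and 1284 in DSF, 588, 558 and 690.2 in NSM, and 3251, 3159 and 2743 in DSF+NSM libraries. Every NSM library was below every DMSO library and every DSF+NSM library above, and the interaction was 2.57 (95% confidence interval 2.21 to 2.93, adjusted p = 5.13e-06). PSMD12, a lid subunit, had a sum of -1.97 and a combination of 0.34, though NSM replicate 3 stood far above the other NSM libraries. The base ATPase PSMC1 was raised by NSM alone (0.65) and reached 2.13 in DSF+NSM. PSMA3, a core subunit, was less than additive: it fell under both single drugs (-0.92 and -1.07) and lay at -0.12 with both (adjusted p against DMSO = 0.522).

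All 8 subunits of TRiC, the chaperonin that folds actin and tubulin, were called above the sum, against 12.1% of all genes. DSF lowered 5 and NSM lowered 4, where DSF changed 17.8% and NSM 49.1% of all genes. The median went from a sum of -0.96 to 0.51 with both. CCT3 had 6046, 6053 and 5987 in DMSO, 5680.3, 5571 and 5587 in DSF, 4037, 3603 and 2417 in NSM, and 15569, 14321 and 10691 in DSF+NSM libraries. NSM and DSF+NSM fell on opposite sides of DMSO, with an interaction of 2.13 (adjusted p = 0.00016). TCP1 gave 2.05 (adjusted p = 7.06e-05) from a sum of -0.99. Not every subunit ended above DMSO, since DSF+NSM raised 5 and lowered 2 (28.3% and 24.5% of all genes). Under equal sums the list kept 5 of 8 calls and lost CCT2, CCT6A and CCT8.

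Metal response genes, driven by MTF1, were raised by DSF and further by DSF with NSM. Of 10 genes on the list 8 were listed and tested. DSF raised 7 of them and NSM alone 3, where DSF changed 17.8% and NSM 49.1% of all genes. The interaction was called above the sum for 5 (12.1% of all genes), all more than additive (2.05%). In all, 2 of the 8 genes passed the filter only through the DSF+NSM libraries. MT1H was among them, so it had to differ, whereas MT1G also reached 10 in the DSF libraries. With genes of at least 10 in every library the median over 5 genes fell from 1.77 to 0.89. Metallothioneins bind copper and zinc, and closely related MT1 genes may have exchanged reads.

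The promoter of MT1H is shown because metallothionein promoters are known to carry metal response elements, here searched as TGCNCNC on both strands (GNGNGCA on the other).

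MT1H, chr16:56669564-56669813, plus strand: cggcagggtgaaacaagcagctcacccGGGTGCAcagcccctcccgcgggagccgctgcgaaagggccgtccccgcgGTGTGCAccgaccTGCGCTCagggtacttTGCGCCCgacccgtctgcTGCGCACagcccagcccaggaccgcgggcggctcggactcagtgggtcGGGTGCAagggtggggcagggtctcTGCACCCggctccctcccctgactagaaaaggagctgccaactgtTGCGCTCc

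The window held 8 matches. The motif is short and 49.1% of all windows, in 53.01% of genes, held at least 1, and of 5 list members with a promoter given, 4 did. MT1H was listed at 0 in all DMSO and NSM libraries, at 4.63, 13.9 and 7.63 in DSF and at 397, 406 and 495 in DSF+NSM libraries. MT1G, for which no promoter is given here, was at 0 in DMSO, 16.2, 24.9 and 30.5 in DSF and 534, 435 and 511 in DSF+NSM. For both, the combination exceeded DSF in every library.

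MT2A, the most abundant metallothionein here, had 1749.7, 1709.9 and 1576 in DMSO, 43364, 58169.5 and 43983 in DSF, 2362, 1953 and 1694 in NSM, and 238399, 251802 and 208773 in DSF+NSM libraries. NSM libraries overlapped DMSO, DSF libraries were far above, and DSF+NSM libraries were above DSF by 2.27 on the log2 scale. The interaction was 2.03 (95% confidence interval 1.57 to 2.49, adjusted p = 7.06e-05). SLC30A1, the zinc exporter, behaved likewise, with libraries of 1388, 1897 and 1135 in DSF and 6092, 5672 and 5938 in DSF+NSM and an interaction of 1.51 (adjusted p = 0.00384). MT1X rose by 7.51 with DSF alone and exceeded the sum by only 0.89 (adjusted p = 0.0156), a call that was lost under equal sums. In contrast, none of the 11 genes for copper uptake, transport and export was called, against 26.1% of all genes, and their median was 0.16 (-0.24 under equal sums).

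Among 21 targets of NRF2, the oxidative stress regulator, 7 were called above and 2 below the sum (12.1% and 14.0% of all genes). Without NSM replicate 3 the counts were 11 and 5. HMOX1, which breaks down heme, had 9.72, 8.31 and 10.8 in DMSO, 12750.0, 16708 and 7614 in DSF, 18.7, 11.6 and 11.5 in NSM, and 124719, 133674 and 117085 in DSF+NSM libraries. NSM alone left it within 0.47 of DMSO on the log2 scale (adjusted p = 0.151), while every DSF+NSM library was far above every DSF library, for an interaction of 2.94 (adjusted p = 0.000189). SRXN1, which restores peroxiredoxins, gave 1.73 (adjusted p = 0.000346), and GCLM, a subunit of the enzyme that starts glutathione synthesis, was called in the combination only (1.61, libraries of 1087, 1022 and 1173 against 364, 334 and 376 in DMSO). FTH1, the ferritin heavy chain, went the other way on the log2 scale. Each drug raised it about alike (3.34 and 3.41) and the combination at 5.61 stayed below the sum (interaction -1.14, adjusted p = 0.00217). Adding the normalized counts gained under each drug instead predicts a level that the combination exceeded, so the scale decides the reading. Under equal sums 5 targets lay above and 6 below, so the list as a whole had no stable direction.

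Cholesterol synthesis was a function on which the drugs acted in opposite directions alone. Of 24 genes tested, DSF lowered 12 and raised none, NSM raised 14 and lowered 4, and DSF+NSM raised 17 and lowered none. Over all genes, DSF changed 17.8% and NSM 49.1%, and DSF+NSM raised 28.3%. The interaction was called above the sum for 21 genes (12.1% of all genes) and below it for none, with 10 genes reversed (5.85%) and 7 more than additive (2.05%). The calls above the sum numbered 17 to 23 with single libraries left out and 15 under equal sums. HMGCS1, which commits acetyl units to the pathway, had 1315, 1391 and 1411 in DMSO, 734, 686 and 686 in DSF, 3196, 3128 and 7037 in NSM, and 21066, 18620.5 and 15615 in DSF+NSM libraries. DSF libraries were all below DMSO, NSM libraries all above it, and DSF+NSM libraries above both, with an interaction of 3.11 (95% confidence interval 2.35 to 3.88, adjusted p = 0.000116). NSM replicate 3 was the highest NSM library, and the interaction ranged from 2.91 to 3.50 over libraries left out.

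LSS, which closes the sterol ring, was lowered by both single drugs, with 334, 335 and 361 in DMSO, 172, 154 and 185 in DSF, 239.5, 244 and 97.3 in NSM, and 338, 408 and 297 in DSF+NSM libraries. DSF+NSM libraries overlapped DMSO, and the interaction of 1.95 (adjusted p = 0.0044) removed a sum of -1.95. INSIG1, a brake on sterol synthesis that the same regulator induces, went from -1.25 with DSF and 0.86 with NSM to 1.27 with both. The regulator SREBF2 was not called (-0.20, adjusted p = 0.571). In fatty acid synthesis 3 of 9 genes were called above the sum (12.1% of all genes) and none below. Without NSM replicate 1 the count was 6, and without NSM replicate 3 it was 5. Among the 3 was SCD, which desaturates fatty acids, whose change was -1.23 under DSF and 0.24 with both drugs (interaction 1.76, adjusted p = 4.58e-05).

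Of 21 immediate early genes, which respond to stimuli without new protein synthesis, 9 were called above and 3 below the sum (12.1% and 14.0% of all genes), and under equal sums 6 and 3. Without DSF+NSM replicate 1, or without replicate 2, 5 were called above, and 1 of the 21 passed the filter only through the DSF+NSM libraries. FOSB, an AP-1 subunit, had 39.9, 40.6 and 30.8 in DMSO, 142, 126 and 77.1 in DSF, 46.2, 35.2 and 56.5 in NSM, and 1982, 2159 and 974 in DSF+NSM libraries. NSM libraries were close to DMSO, and DSF+NSM libraries stood far above DSF, with an interaction of 3.56 (adjusted p = 0.000216). JUN, its partner, gave 1.92 (adjusted p = 0.00111) and JUND 1.67 (adjusted p = 9.73e-05), and EGR1, a growth factor response gene, 1.79 (adjusted p = 0.00239). The 3 genes below the sum were FOSL2, KLF2 and KLF6. KLF2, a zinc finger factor, was raised by 2.68 with DSF and 3.84 with NSM but by no more than 3.76 with both (interaction -2.76, adjusted p = 0.000119).

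Replication-dependent histone genes, whose messages normally end in a stem-loop instead of a poly(A) tail, were called above the sum in 20 of 44 tested cases (12.1% of all genes) and below it in none. Their summed level rose from 989.5 to 1118 in DMSO to 21775 to 24984 in DSF+NSM libraries. With single libraries left out, 10 (without DMSO replicate 2) to 22 were called. Since 11 of the 44 passed the filter through the DSF+NSM libraries alone, the count is not support for the list. Restricting to genes at 10 or more in every library left 11 genes with a median of 0.60, of which 3 were called. HIST1H2BG, called in the combination only, had 8.84, 8.31 and 3.92 in DMSO, 16.2, 14.9 and 7.63 in DSF, 3.93, 7.75 and 2.56 in NSM, and 159, 156 and 113 in DSF+NSM libraries. It passed the filter only through the DSF+NSM libraries, so it had to differ and its values are a description. Copies of these genes share sequence, so values of single members are uncertain.

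The integrated stress response had the lowest median of the 32 lists. Each drug alone raised it, DSF in 15 and NSM in all 17 genes tested, where DSF changed 17.8% and NSM 49.1% of all genes. The combination was called below the sum in 14 (14.0% of all genes) and above it in none. The median sum was 4.78, but the median change with both drugs was 2.76, close to that of NSM alone (2.44). By class, 13 genes were less than additive and 1, STC2, was reversed. DSF+NSM was called above NSM in 4 genes and below it in 5, while 38.6% of all genes differed between these groups. The calls below the sum numbered 12 to 15 with single libraries left out and 15 under equal sums. CEBPG, SESN2 and ATF3 were not called.

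The promoters of DDIT3 and GDF15, which had the 2 largest interactions of the list, were searched for the C/EBP-ATF response element as TGATGNAA and, on the other strand, TTNCATCA.

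DDIT3, chr12:57520515-57520764, minus strand: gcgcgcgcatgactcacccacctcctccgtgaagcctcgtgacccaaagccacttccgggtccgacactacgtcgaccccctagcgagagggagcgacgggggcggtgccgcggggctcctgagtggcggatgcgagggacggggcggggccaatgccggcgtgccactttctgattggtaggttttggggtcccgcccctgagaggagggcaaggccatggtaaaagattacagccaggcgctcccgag

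GDF15, chr19:18385908-18386157, plus strand: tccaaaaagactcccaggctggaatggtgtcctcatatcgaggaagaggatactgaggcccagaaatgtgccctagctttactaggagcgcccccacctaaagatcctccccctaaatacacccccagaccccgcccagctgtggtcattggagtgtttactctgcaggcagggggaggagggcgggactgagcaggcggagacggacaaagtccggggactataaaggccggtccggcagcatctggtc

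Neither window held these letters, and no capitals are therefore shown. Of 16 list members with a promoter given, 4 held a match, and over all windows the share was 3.14% (3.89% of genes). DDIT3, a pro-death transcription factor also called CHOP, had normalized counts of 244, 193 and 139 in DMSO, 1509, 2074 and 1439 in DSF, 6192, 5479 and 4723 in NSM, and 5778, 6140.5 and 6043 in DSF+NSM libraries. The DSF+NSM libraries lay among the NSM libraries. Additivity of the log2 changes predicted 47754, which was 7.98 times the level in DSF+NSM, for an interaction of -3.00 (95% confidence interval -3.61 to -2.39, adjusted p = 4.39e-05). Adding the normalized counts gained under each drug predicts a far nearer level, and every DSF+NSM library stayed below that too. The difference between DSF+NSM and NSM was 0.14 (adjusted p = 0.6).

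GDF15, a secreted stress cytokine, had 0.884, 0.756 and 0.98 in DMSO, 105, 125 and 98.1 in DSF, 119.8, 112 and 71.6 in NSM, and 424, 477 and 453 in DSF+NSM libraries. Its DMSO values were all under 1, so its fitted changes depend on the pseudocount. Here the scale decides the reading, since on the log2 scale DSF+NSM fell short of the sum (interaction -3.70, adjusted p = 2.79e-05), whereas adding the normalized counts gained under each drug predicted 210.0, which every DSF+NSM library exceeded. TRIB3, a pseudokinase that dampens the response, had 1225, 1030.3 and 1119.7 in DMSO, 5138, 6478 and 4985 in DSF, 20453, 18889 and 8482 in NSM, and 12462, 13275 and 17004 in DSF+NSM libraries, with NSM replicate 3 the lowest NSM library, and an interaction of -2.36 (adjusted p = 0.000911). PPP1R15A, which restores translation by removing the phosphate from eIF2α, kept rising in the combination (6.10 against 4.58 with NSM). It still missed its sum of 7.72 on the log2 scale. Like GDF15, it exceeded the level predicted by adding the normalized counts gained under each drug. ATF4, the central factor, was at -0.70 (adjusted p = 0.0167), and its call was lost without DSF replicate 2 (adjusted p = 0.0509). STC2, a secreted glycoprotein, was raised by each drug (0.65 and 0.87) and lowered by both together (-0.74, adjusted p against DMSO = 0.00144).

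Amino acid supply, a branch that ATF4 controls, also fell short of the sum. Of 13 genes for amino acid synthesis and one-carbon metabolism, 7 were called below the sum and none above, and of 10 amino acid transporters 4 and none, where 14.0% of all genes were called below and 12.1% above. Without NSM replicate 3 the transporter count was 7. PHGDH, which opens serine synthesis, had 779, 740.5 and 759.7 in DMSO, 1973, 2538 and 2074 in DSF, 4089.7, 3649.8 and 1946 in NSM, and 1131, 1161 and 1419 in DSF+NSM libraries. Every DSF+NSM library was below every DSF and every NSM library but above DMSO, with an interaction of -2.84 (95% confidence interval -3.54 to -2.14, adjusted p = 0.000119). ASNS, which makes asparagine, gave -1.78 (adjusted p = 9.73e-05), with a change of 0.92 in DSF+NSM against 2.08 in NSM. MTHFD1L and GPT2, enzymes of mitochondrial one-carbon and alanine metabolism, were raised by NSM (1.05 and 1.13) and lay at 0.04 and 0.20 with both.

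Among transporters the cationic amino acid carrier SLC7A1 was reversed, with 1287, 1409.6 and 1525 in DMSO, 1971, 1959.9 and 1882 in DSF, 1934, 1998 and 2215 in NSM, and 944, 789 and 1177 in DSF+NSM libraries. It stood above DMSO under each drug and below DMSO under both, with an interaction of -1.56 (adjusted p = 0.000262). Cytosolic aminoacyl-tRNA synthetases were split, with 3 genes above and 6 below the sum of 20 tested (12.1% and 14.0% of all genes). Under equal sums 1 lay above and 12 below, with a median of -0.72. AARS, which loads alanine, was raised by each drug (1.01 and 1.87) and less by both (0.89, interaction -1.99, adjusted p = 0.000199). RARS, which loads arginine, was lowered by each drug (-0.82 and -0.58) and lay at -0.06 with both.

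**Figure D5:**
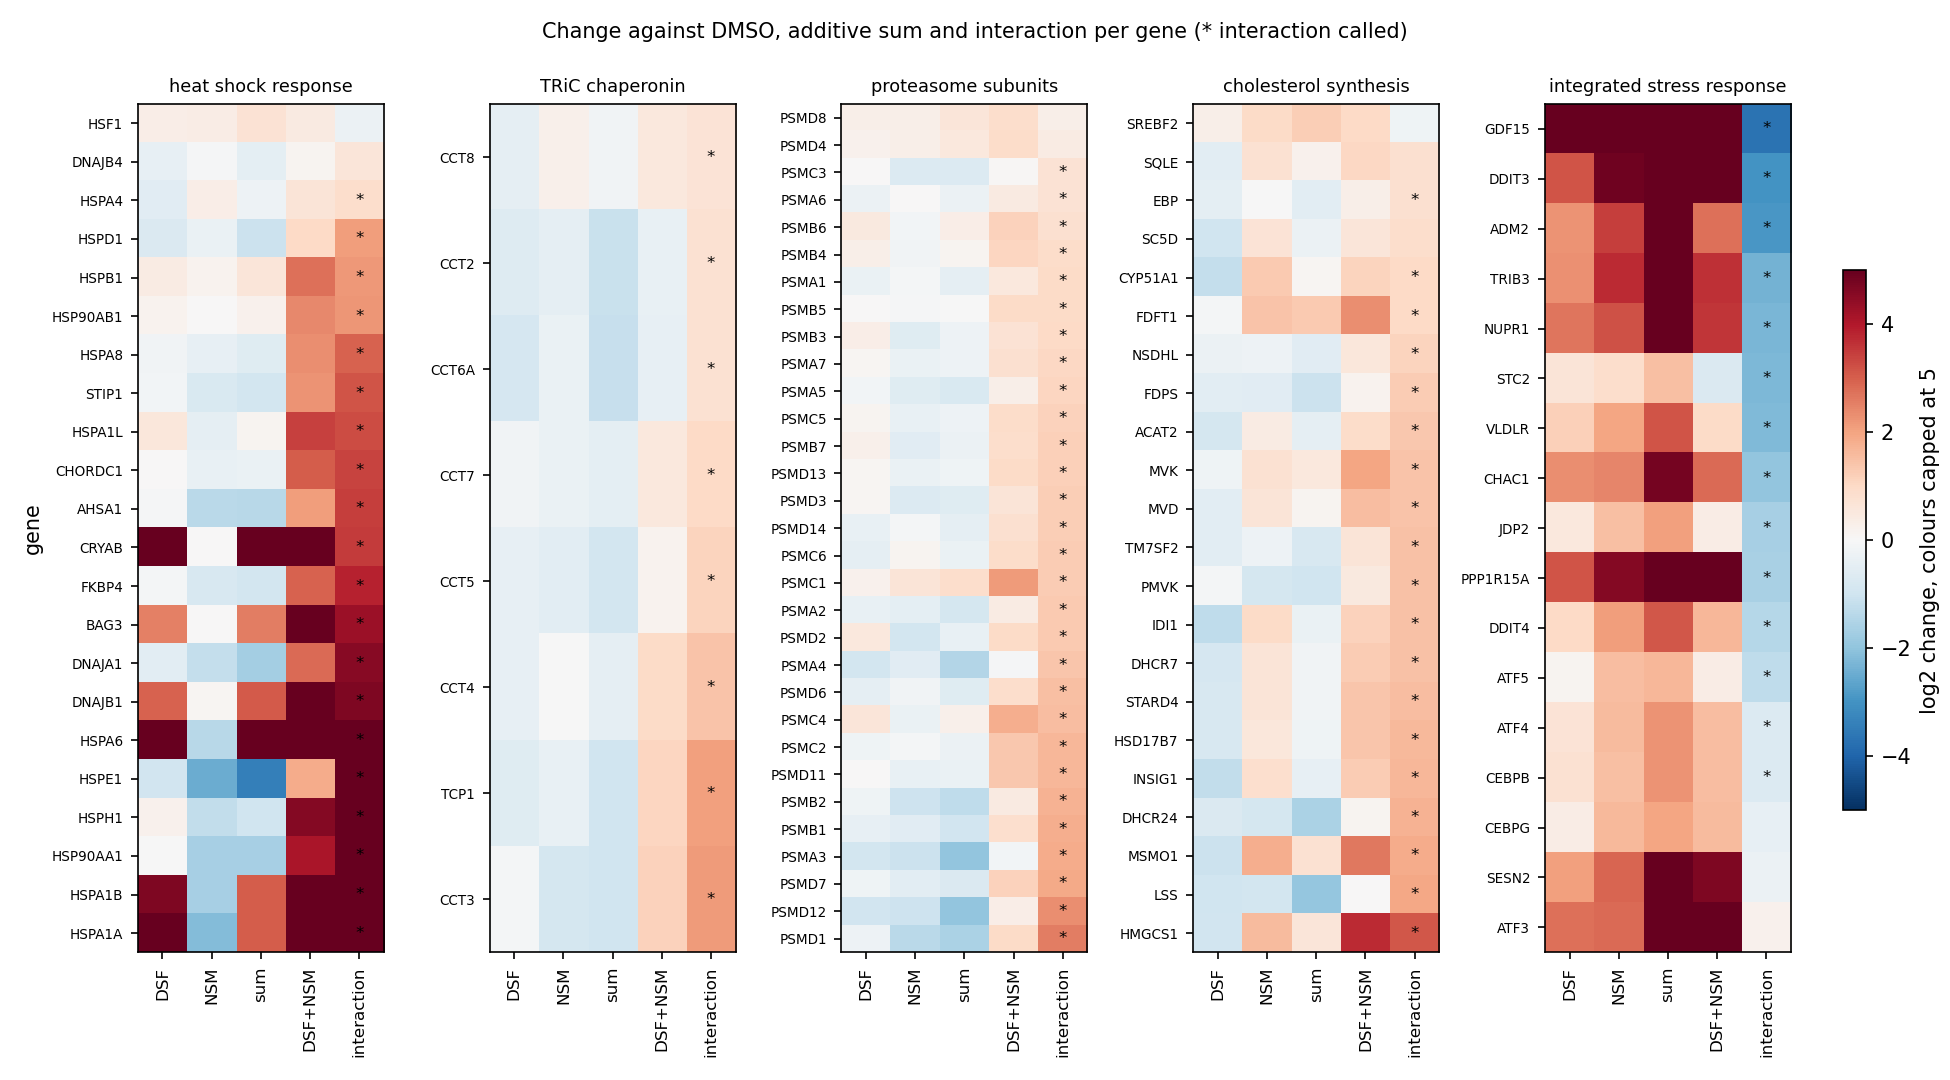
Rows are genes of 5 lists ordered by their interaction (members not reported here are left out), and columns give the log2 change against DMSO under DSF, under NSM, their sum, under DSF+NSM, and the interaction, with an asterisk where the interaction was called. Colours run from blue (lower) to red (higher) and are capped at 5. Most genes of the heat shock and proteasome panels are redder in DSF+NSM than in the sum, while those of the integrated stress response are red in the drug columns, except STC2 in DSF+NSM, and mostly blue in the interaction column.

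Targets of NF-kB, the regulator of inflammation and survival, lay on both sides of the sum. Of 19 genes tested 9 were called below and 5 above the sum (14.0% and 12.1% of all genes). ICAM1, an adhesion receptor, had 94.6, 99.7 and 101 in DMSO, 1061, 1239 and 690.2 in DSF, 905, 709 and 979 in NSM, and 1101, 1252 and 1800.4 in DSF+NSM libraries. The DSF libraries overlapped those of NSM and of DSF+NSM, against 8361 predicted for the combination on the log2 scale, and the interaction was -2.63 (adjusted p = 0.000198). Adding the normalized counts gained under each drug predicts a much lower level, which only the highest DSF+NSM library exceeded. NFKBIA, the inhibitor that NF-kB induces, gave -2.23 (adjusted p = 0.000182), and the subunits RELB and NFKB2 -2.21 and -1.96. The 5 genes above the sum were TNF, IL1B, CXCL2, PTGS2 and SOD2. IL1B, an inflammatory cytokine, had 124, 125 and 123 in DMSO, 306, 314 and 256 in DSF, 100.2, 154 and 138 in NSM, and 762, 811 and 719 in DSF+NSM libraries and an interaction of 1.33 (adjusted p = 0.00198). CXCL2, a chemokine, was at or near 0 outside DSF+NSM, where its libraries were 52.5, 52.5 and 62.2, and it passed the filter through those libraries only.

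Mitosis genes were called below the sum in 13 of 24 cases (14.0% of all genes) and above it in none. Of the 13, 10 were changed in the combination only (4.97% of all genes). Neither drug alone raised any of the 24. DSF lowered 2 and NSM 3, where DSF changed 17.8% and NSM 49.1% of all genes. DSF+NSM lowered 20 and raised 1 (24.5% and 28.3% of all genes). In 16 genes all DSF+NSM libraries lay below the other 9, against 8.65% of all genes. KIF20A, a motor of cytokinesis, had 1139.5, 1201 and 1269 in DMSO, 1217, 1161 and 1079 in DSF, 1026, 861 and 1131 in NSM, and 255, 181 and 110.4 in DSF+NSM libraries. The other 9 libraries lay between 861 and 1269, and the interaction was -2.47 (95% confidence interval -3.20 to -1.74, adjusted p = 0.000315). CENPA, the histone of centromeres, had 477, 457 and 408 in DMSO, 390.4, 421 and 457 in DSF, 574, 529 and 522 in NSM, and 101, 98.4 and 75.1 in DSF+NSM libraries and an interaction of -2.48 (adjusted p = 2.79e-05). PLK1, a kinase of mitotic entry, gave -1.56 (adjusted p = 0.000176), and MKI67, the proliferation antigen, -1.42 (adjusted p = 0.00364). Without NSM replicate 3, 15 genes were called below the sum and 3 above.

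DNA replication genes ran the opposite way. NSM alone lowered 25 of 27, where NSM changed 49.1% of all genes, and 15 were called above the sum (12.1% of all genes) with none below, 14 of them less than additive (11.9%). The median was -1.78 with NSM, -2.22 for the sum and -0.83 with both drugs. DSF+NSM was called above NSM in 20 genes and below it in none, while 38.6% of all genes differed between these groups. GINS4, part of the replicative helicase, had 667, 549 and 583 in DMSO, 456, 444 and 476 in DSF, 84.4, 109 and 70.6 in NSM, and 507, 502 and 285 in DSF+NSM libraries. DSF+NSM libraries lay between NSM and DMSO, and the interaction was 2.64 (adjusted p = 0.000175). CCNE1, a cyclin of S phase entry, gave 2.16 (adjusted p = 0.00168). RRM2, which supplies deoxynucleotides, was -1.48 with NSM and -0.13 with both. PCNA, the clamp of DNA polymerases, was -2.74 with NSM and -2.37 with both, a difference that was not called (adjusted p = 0.0716). Under equal sums 11 genes lay above and 1 below.

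MYC, a driver of growth, fell beyond the sum under both drugs, with 6648, 7067 and 7246 in DMSO, 4824, 4562 and 5327 in DSF, 2545, 2775 and 2294 in NSM, and 376, 261 and 588 in DSF+NSM libraries. The groups did not overlap. NSM alone lowered it (-1.46), the DSF change of -0.51 was not called (adjusted p = 0.13), and DSF+NSM was at -4.17 against a sum of -1.98, an interaction of -2.19 (95% confidence interval -2.87 to -1.51, adjusted p = 0.00044). On the linear scale the expected level was 455 and DSF+NSM replicate 3 lay above it. Of its 10 partners and relatives tested, 5 were called below the sum (14.0% of all genes) and none above. MNT, a repressor that competes with MYC, was raised by each drug (1.00 and 1.44) but lay at 0.41 with both (adjusted p against DMSO = 0.0758), for an interaction of -2.02 (adjusted p = 0.000236), and MXI1, of the same family, had an interaction of -1.57.

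Canonical targets of MLL fusions were called below the sum in 10 of 20 cases and above it in none (14.0% of all genes were called below). The calls below numbered 14 under equal sums and 7 to 11 with single libraries left out. Alone, NSM raised 9 and lowered 1 and DSF changed none, where NSM changed 49.1% and DSF 17.8% of all genes. The classes differed within the list. HOXA9, a homeobox gene required by many MLL leukemias, was reversed, with 612, 659 and 629 in DMSO, 650.0, 717 and 622 in DSF, 1673, 1682 and 4039 in NSM, and 469, 418 and 648 in DSF+NSM libraries. NSM libraries were all above DMSO, NSM replicate 3 far more than the others, and DSF+NSM libraries overlapped or lay below DMSO. The interaction was -2.22 (adjusted p = 0.00184) and ranged from -2.43 to -1.80 with single libraries left out. HOXA3, MEIS1, MEF2C and LMO2 were reversed too, LMO2 with 1756, 1676 and 1718 in DMSO, 1427, 1447 and 1786 in DSF, 3651, 3433 and 3145 in NSM, and 1063, 1199.8 and 1177 in DSF+NSM libraries and an interaction of -1.42 (adjusted p = 0.000162). HOXA4 and PBX3 were less than additive, and HOXA10, with 264, 215 and 335 in DSF+NSM against 1017, 1019 and 962 in DMSO libraries, was called in the combination only. GFI1, a repressor of myeloid genes, was more than additive (-0.43 for the sum, -1.35 with both). KMT2A, whose reads cannot be separated from those of the fusion here, was raised by NSM (0.98) and less by both drugs (0.55, interaction -0.78, adjusted p = 0.0089).

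Myeloid maturation genes had no common direction, with 4 above and 5 below the sum of 19 tested (12.1% and 14.0% of all genes). Those below the sum included the surface proteins ITGAM, ITGAX, CD14 and FCGR1A, while CSF1R, CD163 and CD36 were not called. ITGAM, the integrin CD11b, had 536, 525 and 588 in DMSO, 1673, 1702 and 1272 in DSF, 855, 775 and 702 in NSM, and 707, 889 and 932 in DSF+NSM libraries. DSF libraries were the highest and DSF+NSM libraries overlapped NSM, with an interaction of -1.37 (adjusted p = 0.000863). CD14, a receptor for lipopolysaccharide, gave -1.75 (adjusted p = 0.00437). The granule proteases CTSG and PRTN3 lay above a negative sum (1.47, adjusted p = 0.0016, and 1.55, adjusted p = 0.00568), with CTSG lowered by each drug and PRTN3 by NSM. Of 13 myeloid transcription factors 2 lay above and 4 below (2 below without DSF replicate 2 or DSF+NSM replicate 1), among them CEBPD, a factor of monocyte differentiation, called in the combination only (-0.85, interaction -1.43, adjusted p = 0.00299).

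Single genes taken by size of interaction in each class included some that the combination alone brought out. THBS1, PLK2, CRYBA4 and COL2A1 passed the filter on low values only through the DSF+NSM libraries, so they had to differ and their values are a description. THBS1, a matrix glycoprotein, had 4.42, 3.78 and 4.90 in DMSO, 40.5, 31.8 and 5.45 in DSF, 1.96, 0 and 0 in NSM, and 847, 843 and 419.6 in DSF+NSM libraries. DSF replicate 3 was far below the other DSF libraries, and the fitted interaction was 6.92. PLK2, a kinase induced by stress and listed among p53 targets, had 2.68, 4.58 and 4.95 in DMSO, 9.20, 6.93 and 1.10 in DSF, 0, 0.979 and 1.27 in NSM, and 223, 169 and 72.8 in DSF+NSM libraries and a fitted interaction of 6.26. CRYBA4, a lens crystallin, was listed at 0 in all DMSO libraries, at no more than 4.98 in DSF and 0.982 in NSM libraries, and at 308, 263 and 107 in DSF+NSM. COL2A1, a cartilage collagen, was reversed from low counts, with 7.09, 7.98 and 3.93 in DMSO, 6.96, 2.00 and 1.09 in DSF, 1.97, 1.94 and 0 in NSM, and 372, 263 and 189 in DSF+NSM libraries. It was under 10 in all libraries but those of DSF+NSM, so that its fold is imprecise. Among the 3 largest combination-only falls was also SGK3, whose interaction of -4.28 (adjusted p = 0.0496) rests on DSF+NSM replicate 2, listed at 0, and became -2.59 without it, while its call was lost without any 1 of the DMSO, DSF or NSM libraries (adjusted p = 0.0789 to 0.131).

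Further genes ended below DMSO against a rise under a single drug. TXNIP, an inhibitor of glucose uptake, had 2072, 2125 and 2079 in DMSO, 7189, 7628 and 6121 in DSF, 2264, 2697 and 2212 in NSM, and 1437, 1402 and 1694 in DSF+NSM libraries. DSF alone raised it in all 3 libraries, NSM libraries lay just above DMSO, and DSF+NSM libraries were below all others, with an interaction of -2.39 (adjusted p = 9.72e-06). ABCG1, a cholesterol exporter, lay at 29.4 to 40.9 in DMSO and had 183, 176 and 175 in DSF, 25.8, 32.3 and 20.7 in NSM and 21.2, 25.8 and 20.2 in DSF+NSM libraries, so that it rose with DSF alone and fell with DSF+NSM (interaction -2.49, adjusted p = 0.000272). SDC2, a cell surface proteoglycan, was raised by NSM (0.80) and lowered by both (-1.56). The less than additive genes furthest below the sum were P2RX7, a receptor for extracellular ATP, C5AR1, the complement C5a receptor, and GAB2, a signalling adaptor. C5AR1 had 22.6, 17.8 and 20.2 in DMSO, 387, 406 and 275 in DSF, 565, 554 and 674 in NSM, and 530.2, 612 and 829.6 in DSF+NSM libraries, so DSF+NSM overlapped NSM (interaction -3.94, adjusted p = 9.72e-06). GAB2 with 169.5, 165 and 229 in DMSO, 819, 1069 and 817 in DSF, 2669, 2284 and 2319.5 in NSM, and 792, 744 and 1126 in DSF+NSM libraries returned from the NSM level to that of DSF (interaction -3.73, adjusted p = 7.56e-06).

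For the lists of protein synthesis and energy supply the count of calls depended on single libraries, and its direction on the scaling. Of 80 cytosolic ribosomal protein genes 6 were called above the sum and none below, against 26.1% of all genes called, with a median of 0.34 that under equal sums was -0.08. The respiratory chain had 11 above and 1 below of 75, mitochondrial ribosomal proteins 11 and 2 of 76, nucleolar ribosome biogenesis 7 and 1 of 30, glycolysis 5 and 1 of 21, and snoRNA host transcripts 1 and 0 of 13. With single libraries left out, the calls above the sum ran from 0 to 15 for ribosomal proteins (15 without DSF+NSM replicate 3, 0 without DSF replicate 2 or DSF+NSM replicate 1), 5 to 21 for the respiratory chain, 7 to 25 for mitochondrial ribosomal proteins, 4 to 14 for nucleolar genes, 2 to 10 for glycolysis and 1 to 4 for snoRNA hosts, with the highest of the last 5 ranges all without NSM replicate 3. Calls below the sum then reached 6 for the respiratory chain and 8 for mitochondrial ribosomal proteins. Library weights gave 47 calls above the sum among the ribosomal proteins. For the respiratory chain, mitochondrial ribosomal proteins, glycolysis and snoRNA hosts the median was under 0 under equal sums. Calls under equal sums were 1 above and 10 below for the respiratory chain and 5 and 10 for mitochondrial ribosomal proteins. For nucleolar genes they were 3 and 6, and for glycolysis 1 and 3, so these lists had no stable direction. MRPL18, a mitochondrial ribosomal protein, was an exception in size, going from a sum of -0.99 to 1.05 (interaction 2.03, adjusted p = 0.000217), and NOP58, a core protein of box C/D snoRNPs, from -1.57 to 0.15.

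Among 15 BCL2 family genes 1 lay above and 3 below the sum, and among 17 p53 targets 1 and 4, shares near the background of 26.1%. Without NSM replicate 3 the BCL2 family had 4 above and 6 below, and the p53 target above the sum is PLK2. The killers BBC3 and BMF were raised by each drug and fell short of the sum with both. BBC3 had 127, 89.4 and 102 in DMSO, 461, 464 and 359 in DSF, 1656, 1574 and 665 in NSM, and 1140.2, 1235 and 1308 in DSF+NSM libraries, and NSM replicate 3 was well below the other NSM libraries (interaction -1.98, adjusted p = 0.00393). BMF gave -1.87 (adjusted p = 0.000715). CDKN1A, the cell cycle inhibitor p21, was close to additive, with a sum of 3.01 and a combination of 3.24 (95% confidence interval of the interaction -0.45 to 0.92), and MCL1, a survival protein, was not called at 0.63 (adjusted p = 0.0536). Endoplasmic reticulum stress genes lay 4 above and 5 below the sum of 19 (12.1% and 14.0% of all genes), and 2 and 6 under equal sums. The sensor ERN1 was below the sum (-1.86, adjusted p = 0.000247) and the chaperone CALR above it in the combination only (0.91, adjusted p = 0.0014). Lysosome and autophagy genes lay 8 above and 6 below of 23 (12.1% and 14.0% of all genes), and 3 and 7 under equal sums. With single libraries left out, 4 to 10 lay above and 3 (without DMSO replicate 1) to 8 below. The 4 came without DMSO replicate 2, DSF replicate 3 or DSF+NSM replicate 2. GLA, a lysosomal galactosidase, was reversed upward (2.30, adjusted p = 0.000272), whereas WIPI1, an autophagosome protein, was less than additive, with 105, 91.0 and 119 in DMSO, 319, 392 and 329.8 in DSF, 1465, 1335 and 1552 in NSM, and 688, 802 and 1005 in DSF+NSM libraries (interaction -2.53, adjusted p = 4.58e-05). Of 23 interferon response genes 3 lay above (1 without DSF+NSM replicate 1) and 5 below (3 without DMSO replicate 2), against 12.1% and 14.0% of all genes. Under equal sums 1 lay above and 7 below. Among the 5 below was OAS2, an antiviral enzyme, which DSF raised (0.68), NSM lowered (-0.80) and both lowered further (-1.91).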

How the data were processed

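Poly(A) RNA of 12 cultures was prepared with TruSeq and sequenced on a NextSeq. According to the study's supplementary methods the reads were trimmed with trimmomatic and processed by nf-core/rnaseq using STAR, Salmon and the NCBI GRCh38 genome, whereas the submitters' processing notes name bcl2fastq 2.19, Trimmomatic, Bowtie2, Picard, featureCounts, DESeq2 and hg38. Which tools made the tables, and whether counting used strand, is not given in the sources used here. Each table that the authors deposited gives a signal per gene, a normalized count, for 14866 genes, and its header speaks of 24 libraries, of which 12 were analysed here. Because only 29.0% to 32.3% of the nonzero values of a library were whole multiples (within 0.01) of its smallest common value, the values are not counts of reads and a count model was not used.

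Values were fitted as log2(value + 1) with limma 3.58.1 in R 4.3.3, with 1 mean per group over the 12 libraries, no replicate block, a mean-variance trend and robust moderation. Genes at 10 or more in at least 3 libraries were kept (13502), and p-values were adjusted by Benjamini-Hochberg over all of them. Summaries and figures used Python 3.11.15, numpy 2.4.6, pandas 2.3.3 and matplotlib 3.10.9. The fit was tested on simulated data. Alternatives were other scalings, filters and pseudocounts, library weights, a replicate block, an interaction of at least 1, a linear scale and each library left out. Equal sums without rRNA was added after seeing the data.

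The question, gene lists and tests were chosen with earlier results of these data known. Named genes were the 3 with the largest interaction in each class and direction (group mean of at least 100), up to 2 called members per list and direction, and 16 fixed by name; others were chosen after their values were seen. Same-numbered replicates of different groups correlated at -0.06 to 0.28, over 0.1 in 2 of 18 pairs, so the numbers were not taken as pairs. Results that name items withheld for evaluation are not reported here.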

Additional observations from a re-analysis of the deposited data

Results flagged for a closer look

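The NSM effect depended on whether DSF was present. By limma's test of that difference, 3527 genes had an NSM effect in DSF-treated cells unlike that in DMSO-treated cells, higher in 1632 and lower in 1895. The contrast is symmetric, so the DSF effect differs with NSM in these genes as well.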

How the results depend on the processing

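No gene called both here and in an alternative changed the sign of its interaction, but counts and sizes moved, and the cause was not tested except where the alternative sets it by dropping genes or libraries. Leaving out 1 library at a time gave 2569 to 6175 genes called (1112 to 2899 above and 1407 to 3276 below the sum), with 433 to 910 in the combination only, 153 to 658 more than additive, 1136 to 3024 less than additive, 505 to 1441 reversed and 158 to 763 strictly reversed. The fewest were called without DSF+NSM replicate 1 and the most without NSM replicate 3, whose library weight was 0.0499. Median interactions then ran from -1.78 to -1.57 (integrated stress response), 3.29 to 3.79 (heat shock), 0.99 to 1.19 (TRiC), 1.12 to 1.30 (proteasome), 1.49 to 1.94 (metal response), 1.21 to 1.47 (cholesterol), 0.78 to 1.02 (DNA replication), -0.79 to -0.55 (mitosis) and 1.41 to 1.90 (histones). Calls of BLVRB, EGR2, EGR3, ISG15, PFKP, PYCRL, SCLY and SGK3, all with an adjusted p over 0.02, were among those lost in several of these fits.

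Under equal sums calls became 913 above and 3866 below, with 1587 in the combination only, 651 more than additive and 526 strictly reversed, and medians were -2.09 (integrated stress response), 3.00 (heat shock), 0.65 (TRiC), 0.82 (proteasome), 1.09 (metal), 1.01 (cholesterol), 0.55 (DNA replication), -1.14 (mitosis) and 1.36 (histones). Without rRNA in the sums, chosen after seeing the data, the same values were 976, 3496, 1382, 522, 467, -2.04, 3.06, 0.70, 0.88, 1.15, 1.06, 0.60, -1.09 and 1.41. The interaction of CDKN1A, not called at 0.24, was -0.18 and -0.13 in these fits and -0.023 with library weights. Weights gave 7625 calls, 3732 above and 3893 below, 1219 more and 3526 less than additive, 2110 reversed and 1284 strictly reversed, with medians of -1.82 (integrated stress response), 3.77 (heat shock), 1.23 (TRiC), 1.55 (metal) and 1.31 (cholesterol).

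The metal response median was 1.54 by median of ratios, 1.51 by trimmed mean of M values, 0.89 with genes at 10 or more in every library and 1.26 at a pseudocount of 10. The histone median was 0.60 with that filter and 1.24 at that pseudocount, which also put the integrated stress response at -1.43. An interaction of at least 1 left 2422 genes. With the replicate number as a block, 3646 genes were called, 3371 of them shared, no list median or class count above moved beyond its limits, MCL1 was gained and EGR3 and SGK3 were lost. Low values limit the folds of genes near 0 in DMSO, and 3 libraries a group limit the power for small interactions.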

Other observations

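Some lists held members on both sides of the sum. In lysosome and autophagy, the channel MCOLN1 had 220.0, 224 and 269.6 in DMSO, 382, 398 and 369 in DSF, 152, 155 and 86.9 in NSM, and 840.2, 942 and 551 in DSF+NSM libraries, so that NSM lowered it and both drugs raised it (interaction 1.88, adjusted p = 0.00196 from limma). In endoplasmic reticulum stress, the cochaperone DNAJB9 had 84.0, 101 and 91.2 in DMSO, 256, 269 and 243 in DSF, 173, 264 and 439.8 in NSM, and 221, 210.0 and 284 in DSF+NSM libraries, a rise with each drug, and the DSF+NSM libraries overlapped both single-drug groups (interaction -1.67, adjusted p = 0.00726), while CRELD2, an ER-resident folding factor, moved from -0.88 with NSM to 0.85 with both (interaction 1.68, adjusted p = 0.00315). Among interferon genes, the antiviral effector IFIT2 had 125, 132 and 148 in DMSO, 207, 195 and 194 in DSF, 55.0, 53.3 and 86.9 in NSM, and 315, 287 and 275 in DSF+NSM libraries, lower than DMSO with NSM and highest with both (interaction 1.63, adjusted p = 0.00116). IRF9, a subunit of the interferon-activated complex, had 141, 166 and 140.2 in DMSO, 327, 388 and 281 in DSF, 228, 214 and 151 in NSM, and 109, 139 and 169 in DSF+NSM libraries, and the DSF libraries were above all DSF+NSM libraries (interaction -1.65, adjusted p = 0.00204). In glycolysis the glucose transporter SLC2A3 had 1694, 1657 and 1964 in DMSO, 3595, 3965 and 3318 in DSF, 6024, 5705 and 7217 in NSM, and 4012, 4236 and 5945 in DSF+NSM libraries and an interaction of -1.46 (adjusted p = 0.00066).

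Other motifs searched in the same promoters gave these shares. The AP-1 site TGANTCA was in 0 of 17 immediate early genes with a promoter given (8.06% of all genes), the antioxidant response element TGACNNNGC in 4 of 15 NRF2 targets (13.2%), the sterol regulatory element TCACNCCAC in 1 of 18 cholesterol genes (1.09%), the E-box CACGTG in 3 of 25 nucleolar genes (7.73%) and the ER stress response element in 7 of 18 endoplasmic reticulum stress genes (0.0916%). Each was searched on both strands in windows of 250 bases, and a missing match says only that these letters are not there.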
